A study of Arabidopsis thaliana with 3 samples.

Results

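For some genes of Arabidopsis thaliana, leaf reads were listed for many events in which a stretch inside a single exon was missing from the reads. These are the rows of the deposited event table with the class CRIN, a code that was read from the coordinates since the labels do not define it. The 640 events described here lie in the 52 nuclear genes with 5 or more such rows. They were chosen from 2793 nuclear CRIN events in 1669 genes, in a table of 62909 events in 14496 genes. The other 2153 CRIN events, in 1617 genes with 1 to 4 each, serve as the comparison and are called sparse below. The number of listed rows chose the members, so the number of events per gene is a description with no test. So is every comparison with the sparse events, because events of a gene share its sequence and its reads. The label of introns was checked against the bases at the ends of each stretch. By number, most of the 640 events go against it: 187 of the 613 events that remove 1 stretch (30.5%) began with GT and ended with AG. By reads the order is reversed, since these 187 events held 115686 of the 132861 alternative reads of the 640. Because most lack such ends by number, all members are called events or removed stretches here, not introns. The other 27 events list 2 stretches joined in 1 row, and their ends were not classified.

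The spliceosome recognises an intron by short sequences at its ends. Nearly all plant introns begin with GT and end with AG on the transcribed strand, and they are richer in A and T than the exons beside them. Introns that lie wholly inside an annotated exon are known from Arabidopsis, and when such an intron lies in coding sequence and its length is a multiple of 3, its removal keeps the reading frame. Some plant proteins are built from tandem repeats, such as ubiquitin units joined head to tail or the short proline-rich and glycine-rich motifs of cell wall proteins. When a stretch between identical bases is removed, the same joined sequence results from several start positions, and reverse transcriptase can also jump between such repeats while it copies an RNA. Listed rows of equal length that give the same joined sequence were not merged. All counts and shares of events below are therefore of deposited rows. The number of different junctions is smaller and was not counted. Which of splicing, copying and read placement gave a particular event was not tested.

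The data come from 3 libraries, replicates 1, 2 and 3 of 1 group, made from pooled first true leaves of untreated Col-0 plants. Col-0 is the reference accession, no gene was altered and no condition was varied. Nothing in the labels tells whether these pools were grown apart, so the spread between libraries may be technical. The member genes held 7715636, 7360829 and 13701528 gene-wide reads in replicates 1, 2 and 3. A gene-wide total is the sum of alternative and other reads that the table gives for CRIN events, and it is the same for every CRIN event of a gene. A level below is an event's alternative reads in percent of that total, so it is not the share of transcripts that lack the stretch. The events had 40084, 27419 and 65358 alternative reads in the 3 libraries. Leaf genes were abundant (RBCS1A, the Rubisco small subunit, reached 1330821 reads or more in every library), while the floral regulators AG and SEP3 reached at most 23 reads. Each value is the largest sum of alternative and other reads over the gene's listed events of any class. The values of AG and SEP3, with 1 and 2 listed events, may therefore not be gene-wide.

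The ends of 8 events show the kinds of sequence that were found. They are printed because the first 5 carry identical bases at both ends, in genes with many events, and the last 3 are among the events with the most reads. For each event the first line shows 15 bases before and 15 bases after the point where the removed stretch begins, and the second line shows 15 bases on either side of the point where it stops, on the gene's own strand, read from TAIR10.1. In the first 5 events capitals mark the bases that are identical at both ends, over which the stretch could be moved with no change to the joined sequence, as far as they fall in the window. In the last 3 events capitals mark the first and last 2 bases of the removed stretch.
PRP4 first end: AGATAGAGCACCCACCTCCcgttccggtac
PRP4 second end: AGATAGAGCACCCACCTCCagttccggttt
UBQ10 first end: GGTATTCCTCCGGACCAGCAGAGgctgatc
UBQ10 second end: GGTATTCCTCCGGACCAGCAGAGattgatc
AT1G67870 first end: CATGGGATGCAGCACCAGGGggggcacgga
AT1G67870 second end: CATGGGATGCAGCACCAGGGcaggcacgga
AT2G10940 first end: ctcctgtgaccatcCCTAAGCTACCCGTTC
AT2G10940 second end: caccagtgactgtaCCTAAGCTACCCGTTC
LHB1B2 first end: tgagctagaagttaTCCACagcagatgggc
LHB1B2 second end: caacccgagcttggTCCACgctcagagcat
UBQ14 first end: tcaatcgggatcaagGTaaatttctgggtt
UBQ14 second end: ttttgtgaattacAGatgcagatctttgtt
PMDH2 first end: tttgttgcttcacagGTgaatcttgaaaac
PMDH2 second end: ggcaattgaccacAGgtgacagaattagct
LNK2 first end: attcaacaagaggtgGTgcgtttctcttga
LNK2 second end: ctctgtttttaccAGagaaaacgtctgaac
The stretches are chr4:18097308-18097496 in PRP4 (minus strand, 189 nt), chr4:2718904-2719131 in UBQ10 (plus strand, 228 nt), chr1:25449803-25449874 in AT1G67870 (minus strand, 72 nt), chr2:4311756-4311785 in AT2G10940 (minus strand, 30 nt) and chr2:14523062-14523217 in LHB1B2 (minus strand, 156 nt), all in coding sequence. The last 3 are chr4:1279665-1279961 in the 5′ UTR of UBQ14 (minus strand, 297 nt), chr5:2993905-2993977 in coding sequence of PMDH2 (minus strand, 73 nt) and chr3:20178065-20178157 in coding sequence of LNK2 (minus strand, 93 nt). The identical run spans 20 bases in PRP4, 44 in UBQ10, 24 in AT1G67870, 17 in AT2G10940 and 5 in LHB1B2.

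The events were concentrated in few genes. PRP4 (AT4G38770), a proline-rich cell wall protein, had 87, UBQ10 (AT4G05320), a polyubiquitin gene, had 65, and AT1G67870, annotated as a glycine-rich protein, had 55. CAB1 (AT1G29930, also LHCB1.3), a chlorophyll-binding antenna protein of photosystem II, had 43, and AT2G10940, annotated in the lipid-transfer and seed storage albumin superfamily, had 28. These 5 genes held 278 of the 640 events, of which 20 of 274 single-stretch events (7.30%) had GT-AG ends, beside 167 of 339 (49.3%) in the other 47 genes. The next genes by number were LHB1B2 (AT2G34420) with 26 and LHB1B1 (AT2G34430) with 21, both antenna proteins of the same family, then AT3G23450 (18), AT5G39570 (15, glycine-rich) and AT1G13650 (12). At the edge of the rule, 19 genes had exactly 5 events and 27 genes had 4. GT-AG ends were found in 65 of 86 single-stretch events (75.6%) of genes with 5, against 84 of 104 (80.8%) of genes with 4. Annotated introns made up 22 (25.6%) against 43 (41.3%), lengths divisible by 3 made up 28 (32.6%) against 45 (43.3%), and the median level was 0.0644% against 0.219%.

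**Figure D1:**
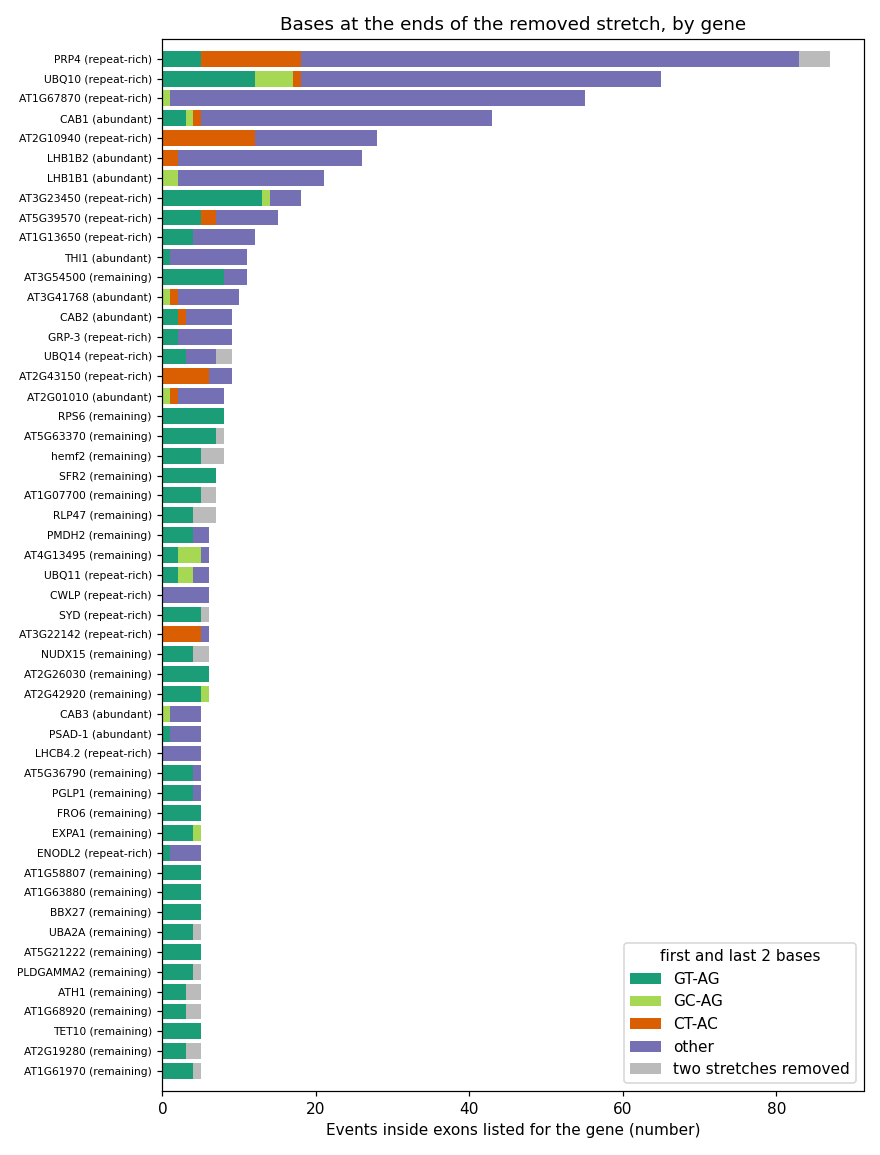
Number of listed events inside exons (x axis) for each of the 52 genes (y axis), with the class of the gene in parentheses and colours for the first and last 2 bases of the removed stretch on the gene's strand. The genes at the top, led by PRP4 with 87 events and UBQ10 with 65, hold mostly ends other than GT-AG, while in most genes with 5 to 8 events nearly all classified ends are GT-AG.

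The 52 genes were split into 3 classes by 2 features, repeats and gene-wide total. Neither set the members, but both were named with the rule, and the number of listed events is not independent of reads. The median of the mean total per library was 29856 reads in member genes, against 2366 in sparse genes. The thresholds were set after the values were seen, so differences between the classes are descriptions. Repeat-rich genes are the 16 in which 2% or more of the 15-nt words of the longest spliced transcript occur more than once. Abundant genes are 9 others with a mean gene-wide total of 200000 reads or more per library. The remaining 27 genes have neither feature. Repeat-rich genes made up 16 of 52 member genes (30.8%), against 55 of 1615 sparse genes (3.41%). The classes held 341, 138 and 161 events, and their ends differed. GT-AG ends were found in 52 of 334 single-stretch events of repeat-rich genes (15.6%, Wilson 95% interval 12.1 to 19.8%) and in 7 of 138 of abundant genes (5.07%, 2.48 to 10.1%). In the remaining genes they were found in 128 of 141 (90.8%, 84.9 to 94.5%). These intervals take events of a gene as independent, which they are not, so they understate the spread between genes. Within the repeat-rich class the share ran from 0% in AT1G67870 to 100% in SYD. Moving the stretch within its identical run gave GT-AG ends to 10 further events. All single-stretch events had GT-AG ends in 20 of the 27 remaining genes, in 1 repeat-rich gene and in no abundant gene.

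PRP4 illustrates the repeat-rich class. All 83 of its single-stretch events overlapped another, and 82 had a length divisible by 3, with deposited starts spread over 635 nt. The lengths ranged from 27 to 468 nt, GT-AG ends were found in 5 and CT-AC ends in 13. CT-AC on the gene's strand reads GT-AG on the opposite strand. The sources used here do not state whether the libraries kept strand. The event with the most reads, the 189-nt stretch printed above, was of this CT-AC type and had 43, 47 and 103 alternative reads in replicates 1, 2 and 3, of totals of 129189, 132889 and 274467. Its levels of 0.0333, 0.0354 and 0.0375% (0.0354% ± 0.00212, SD, n = 3) were close in the 3 libraries. A 213-nt stretch at chr4:18097369-18097581 had 58, 27 and 71 reads, or 0.0449, 0.0203 and 0.0259%. Replicate 1 was the highest, and the levels differed beyond counting error (adjusted p = 0.00764, chi-square test of homogeneity, adjusted over all listed events after Benjamini and Hochberg). A second 213-nt stretch, 15 bases away, had 29, 22 and 50 reads. All events of PRP4 together took 0.370, 0.345 and 0.317% of its reads (0.344% ± 0.0263).

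UBQ10 showed the repeat unit in its event lengths. Ubiquitin is a protein of 76 amino acids, and its unit in the gene is 228 nt. Of the 65 events of UBQ10, 28 removed exactly 228 nt and 8 removed 456 nt, which is 2 units. In total 38 had a length that is a multiple of the unit, with identical runs of 2 to 56 bases (median 15), and they held 410 of the 726 alternative reads of the gene's events. Of these 38, 10 had GT-AG ends and 5 coincided with introns annotated in RefSeq. The 228-nt event printed above had 11, 9 and 14 reads in replicates 1, 2 and 3 (0.00726, 0.00594 and 0.00515%). The event with the most reads was not a unit: a 56-nt stretch with GT-AG ends at chr4:2719241-2719296 had 19, 19 and 14 reads, or 0.0125, 0.0125 and 0.00515%. A 114-nt stretch had 14, 11 and 16 reads. The 65 events together reached 0.149, 0.133 and 0.110% of the gene's reads (0.131% ± 0.0199). In other polyubiquitin genes, 4 of 6 events of UBQ11 (AT4G05050) and 2 of 7 single-stretch events of UBQ14 (AT4G02890) were also exactly 228 nt long.

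Some other repeat-rich genes had lengths that were mostly multiples of a unit, which was read from the lengths after these were seen. The fit varied: 14 of 18 lengths in AT3G23450 and 8 of 12 in AT1G13650 were multiples of 30 nt. For PRP4 the unit used was only 3 nt. All 55 events of AT1G67870 had lengths that are multiples of 24 nt, from 72 to 216 nt, and a median identical run of 15 bases. None of the 55 had GT-AG ends. Some of these rows are 1 junction listed several times. The 72-nt rows that start at 25449827, 25449840, 25449843 and 25449851 lie in the same run of 33 bases and give the same joined sequence. So do the 72-nt rows that start at 25449803, which is printed above, and at 25449821. The 72-nt event printed above had 13, 15 and 32 reads in replicates 1, 2 and 3 (0.0259, 0.0371 and 0.0391%), and a 96-nt event that shares its end at 25449874 had 12, 13 and 18 reads. In AT2G10940, 27 of 28 lengths were multiples of 30 nt. Its 30-nt event printed above had 11, 13 and 60 reads (0.0132, 0.0191 and 0.0282%), with replicate 3 the highest both in reads and in level, a spread that did not pass the test (adjusted p = 0.194, chi-square test of homogeneity). A 30-nt event at chr2:4311636-4311665 had 12, 18 and 45 reads, and a 180-nt event that starts at the same base had 17, 11 and 46. All 3 had CT-AC ends.

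The repeat-rich genes with fewer events varied in length and ends. All 9 events of AT2G43150, annotated as extensin-like, had lengths that are multiples of 48 nt, and 6 had CT-AC ends. Its 48-nt event at chr2:17946269-17946316, with an identical run of 47 bases, had 54, 47 and 66 reads of totals of 3276, 1957 and 3573 (1.65, 2.40 and 1.85%). It was among 4 events of repeat-rich genes with a mean level of 1% or more. All 6 events of CWLP (AT3G22120), a cell wall linker protein, had lengths that are multiples of 30 nt and none had GT-AG ends. All 9 of GRP-3 (AT2G05520), a glycine-rich protein, were divisible by 3 in length and had identical runs of 5 or more bases, and 2 had GT-AG ends. AT3G23450 stood apart within the class, since 13 of its 18 events had GT-AG ends while 16 of 18 had such identical runs. SYD (AT2G28290), a chromatin remodelling ATPase, also differed: all 5 of its single-stretch events had GT-AG ends and its longest identical run was 4 bases. AT3G22142, annotated in the same superfamily as AT2G10940, had 6 events of up to 1035 nt, 5 of them with CT-AC ends. LHCB4.2 (AT3G08940), a minor antenna protein, fell in the class by its transcript, but only 1 of its 5 events had an identical run of 5 or more bases.

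**Figure D2:**
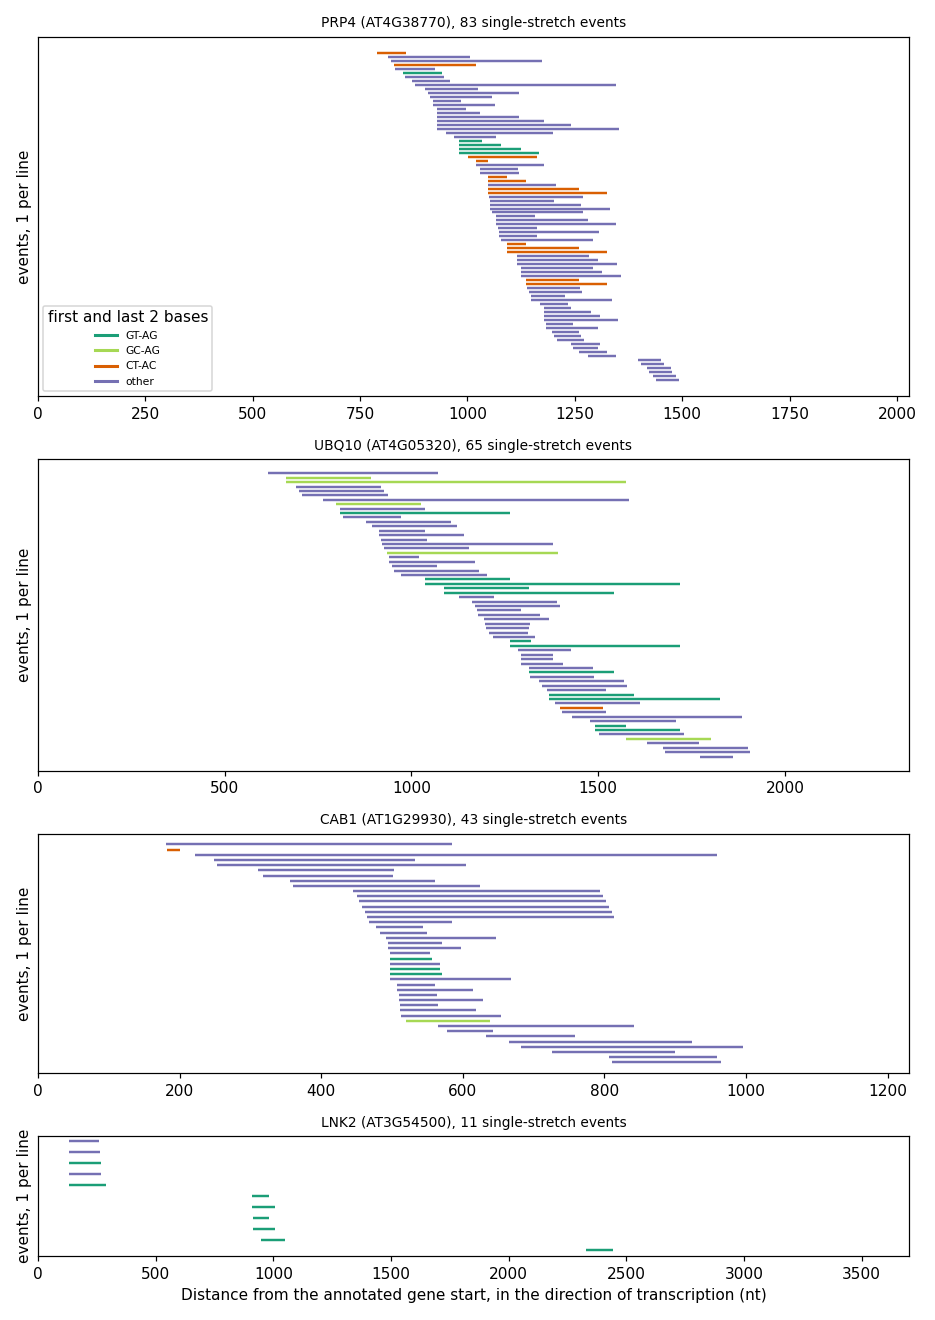
Removed stretches of PRP4, UBQ10, CAB1 and LNK2, 1 line per single-stretch event, by distance from the annotated gene start in the direction of transcription (x axis, nt), coloured by the first and last 2 bases. In PRP4, UBQ10 and CAB1 the stretches tile the coding region in overlapping steps, while the 11 events of LNK2 fall at 3 places.

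The abundant class held CAB1, CAB2, CAB3, LHB1B1 and LHB1B2, which encode the major antenna proteins, PSAD-1, a photosystem I subunit, THI1, a thiazole synthase of vitamin B1 synthesis, and the 18S ribosomal RNA genes AT3G41768 and AT2G01010. CAB1 had gene-wide totals of 1656705, 2162888 and 4005889 reads, the highest of the member genes in each library. Of its 43 events, 3 had GT-AG ends, and 6 removed 348 nt from start positions within 20 nt of each other. A 348-nt stretch at chr1:10478347-10478694 had 14, 13 and 23 reads, or 0.000845, 0.000601 and 0.000574% of the gene's reads. A shifted 348-nt stretch at chr1:10478339-10478686 had 1, 12 and 32 reads and was lowest in replicate 1 (adjusted p = 0.0411, chi-square test of homogeneity). A 54-nt stretch had 12, 9 and 15 reads. All 43 events together took 0.00760, 0.00744 and 0.00706% of the gene's reads (0.00737% ± 0.000278).

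The antenna genes LHB1B2 and LHB1B1 lie side by side on chromosome 2 and shared a 156-nt event. In LHB1B2 the stretch printed above had 120, 166 and 241 reads (0.0151, 0.0162 and 0.0152%), and a row moved by 1 base, at chr2:14523063-14523218, had 120, 134 and 207. Both rows lie in the same run of 5 identical bases and give the same joined sequence. They are therefore 1 junction with its reads split between rows. In LHB1B1 the 156-nt stretches at chr2:14525117-14525272 and chr2:14525116-14525271 had 137, 176 and 263 reads and 102, 131 and 216 reads. These LHB1B1 rows likewise share a run of 5 bases and are 1 junction. None of these 4 rows had GT-AG ends. The 26 events of LHB1B2 together reached 0.0444% ± 0.00318 of its reads and the 21 of LHB1B1 reached 0.0858% ± 0.00611. In the other protein-coding abundant genes the summed level was 0.00276% ± 0.000550 for the 9 events of CAB2, 0.00134% ± 0.000164 for the 5 of CAB3, 0.00457% ± 0.000896 for the 5 of PSAD-1 and 0.0252% ± 0.00724 for the 11 of THI1. The antenna genes are close relatives, and their counts are uncertain, because the assignment of reads that match several of them was not given.

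The 2 ribosomal RNA genes are near-identical copies, and their counts are uncertain for the same reason. All 8 events of AT2G01010 lay at the same distance from the gene start as events of AT3G41768, and 3 of them had identical counts in every library. Their totals differed widely between libraries: AT3G41768 had 973493, 99716 and 354300 gene-wide reads in replicates 1, 2 and 3, with replicate 2 the lowest. A 51-nt event had 1186, 120 and 448 reads in AT3G41768 (0.122, 0.120 and 0.126%) and 1014, 110 and 406 in AT2G01010 (0.127, 0.136 and 0.142%). These were the only events of abundant genes with a mean level of 0.1% or more, and neither had GT-AG ends. The other such copies are PGLP1 (AT5G36700), a photorespiratory phosphatase, and AT5G36790. Their 5 events each lay at the same positions within the gene and agreed within 2 reads in every library, so they may be 1 set of reads assigned to both.

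The remaining 27 genes held 93119 of the 132861 alternative reads, of which PMDH2 had 32490 and EXPA1 28862. Repeat-rich genes held 31906, of which UBQ14 had 25318, and abundant genes held 7836. Their removed stretches had a median G and C content of 35.7%, against 55.6% in repeat-rich genes, 55.5% in abundant genes and 38.5% in sparse events. Their median length was 109 nt, 47 of 141 single-stretch events matched an intron annotated in RefSeq at both ends, and 21 of the 27 genes had a summed level above 1%. Of these events, 52 of 161 were in 3′ UTRs and 21 in 5′ UTRs, while 336 of the 341 in repeat-rich genes were in coding sequence. Of all 640 events, 519 lay in coding sequence, 26 in 5′ UTRs, 52 in 3′ UTRs, 17 across a coding boundary, 24 in noncoding exons and 2 in no annotated exon.

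**Figure D3:**
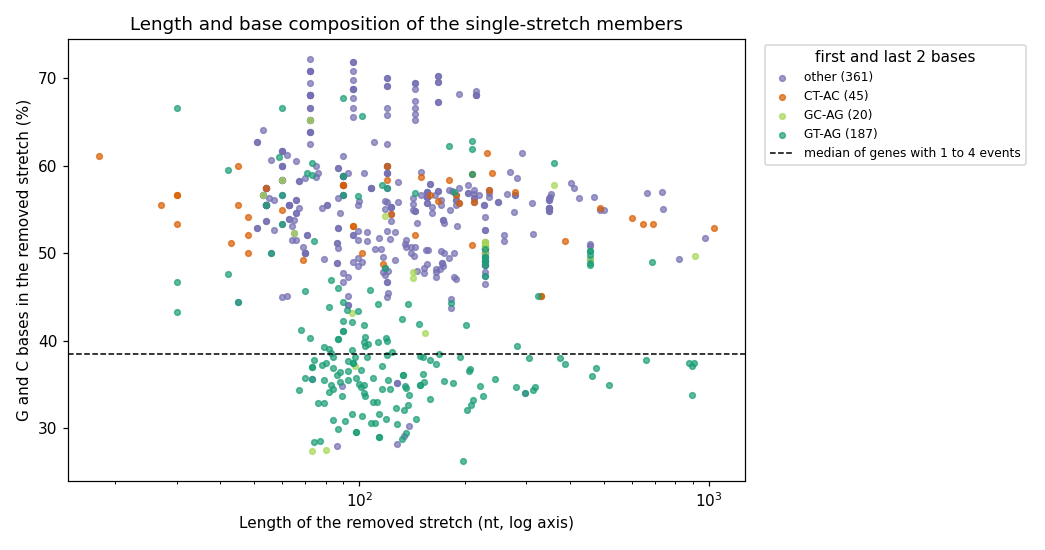
G and C content of the removed stretch in percent (y axis) against its length in nt (log x axis) for the 613 single-stretch events, coloured by the first and last 2 bases, with a dashed line at the sparse median of 38.5%. Most GT-AG events sit near or below the line, and most others lie between 45 and 70% with columns of equal length such as 72, 96 and 228 nt.

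The highest levels belonged to GT-AG events at annotated introns. The 297-nt event in the 5′ UTR of UBQ14 had 6228, 5947 and 13030 alternative reads in replicates 1, 2 and 3, of totals of 24831, 22165 and 46813. Its levels were 25.1, 26.8 and 27.8% (26.6% ± 1.39), lowest in replicate 1, and they differed beyond counting error (adjusted p = 3.92e-12, chi-square test of homogeneity). UBQ14 is repeat-rich through its coding sequence, and 25205 of its 25318 alternative reads came from this event. An 89-nt event in the 5′ UTR of EXPA1 (AT1G69530), an expansin that loosens cell walls, at chr1:26141920-26142008, had 9017, 2308 and 14833 reads. The gene's totals were 48457, 12489 and 82530, lowest in replicate 2, while the levels of 18.6, 18.5 and 17.97% (18.4% ± 0.336) stayed close. The 73-nt event of PMDH2 (AT5G09660), a peroxisomal malate dehydrogenase of photorespiration, had 8940, 8791 and 14689 reads, the most of any member, and levels of 9.19, 9.30 and 9.17% (9.22% ± 0.0672).

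AT1G07700, annotated in the thioredoxin superfamily, had 3 events among the 10 with the highest level. A 122-nt event across a boundary of coding sequence and UTR, at chr1:2380232-2380353, reached 8.68, 9.39 and 9.32%. A 305-nt event in its 5′ UTR reached 8.36, 7.24 and 9.10%, highest in replicate 3 (adjusted p = 0.0215, chi-square test of homogeneity), and a 374-nt event with the same second end reached 6.75, 5.94 and 5.92%. In hemf2 (AT4G03205), annotated as a coproporphyrinogen oxidase of the haem and chlorophyll pathway, an 84-nt 3′ UTR event reached 10.6, 5.70 and 7.42% on 50, 27 and 79 reads, and a 194-nt event reached 6.99, 5.91 and 5.45%. The wider spread of these levels goes with totals of 472, 474 and 1065 reads. A 102-nt coding event of SFR2 (AT3G06510), a galactolipid enzyme of freezing tolerance, reached 6.91, 6.38 and 6.30% (6.53% ± 0.328). Its length is divisible by 3. A 76-nt 3′ UTR event of NUDX15 (AT1G28960), a nudix hydrolase, reached 7.22, 4.23 and 4.10%, with replicate 1 the highest (adjusted p = 0.00680, chi-square test of homogeneity).

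LNK2 (AT3G54500), a clock-regulated gene, had 11 events, of which 8 had GT-AG ends. The 93-nt coding event printed above had 1323, 920 and 1968 reads (4.55, 4.62 and 4.45%; 4.54% ± 0.0876), and a 96-nt event that starts at the same deposited coordinate had 601, 461 and 911 reads (2.07, 2.31 and 2.06%). A 136-nt event in the 5′ UTR reached 2.37, 3.27 and 2.74%, lowest in replicate 1 and highest in replicate 2 (adjusted p = 1.03e-06, chi-square test of homogeneity). In the noncoding RNA gene AT4G13495, a 73-nt event with GC-AG ends at chr4:7843303-7843375 had 1019, 535 and 1660 reads (2.26, 1.73 and 2.29%), lowest in replicate 2 (adjusted p = 1.42e-06, chi-square test of homogeneity). A 127-nt GT-AG event that ends at the same base had 748, 659 and 1460 reads and was highest in replicate 2 (1.66, 2.13 and 2.01%). RPS6 (AT5G46470), which is a receptor for resistance to Pseudomonas syringae and not the ribosomal protein of that name, had 8 events, all GT-AG. Its 82-nt coding event reached 1.86, 0.887 and 1.16%, highest in replicate 1 (adjusted p = 3.07e-04, chi-square test of homogeneity).

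Median levels differed between the 3 classes in every library. The median level over the 640 events was 0.00401, 0.00445 and 0.00366% in replicates 1, 2 and 3 (0.00404% ± 0.000392). Counting each gene once raised it to 0.0294%, and keeping only events with 10 or more reads in each library raised it to 0.376%. Over all events it was 0.00357% ± 0.000541 in repeat-rich genes, 0.000400% ± 3.64e-05 in abundant genes and 0.209% ± 0.0432 in the remaining genes. All events of a gene share 1 total, and the lowest level that 1 read can give falls as that total rises, which bears on the order of the classes. The abundant class was defined by this total, so its low level follows in part from the definition. In alternative reads the classes lay closer, with medians over the 3 libraries together of 8, 12 and 26 reads per event. By gene, the summed level had a median of 0.249% in the 16 repeat-rich genes, 0.0252% in the 9 abundant genes and 3.93% in the 27 remaining genes. Events that matched an annotated intron (58) had a median level of 1.00% ± 0.158 and held 107591 of the 132861 reads, while the 555 other single-stretch events had a median of 0.00300% ± 0.000444. The 148 events with fewer than 10 reads in all libraries together in the 5 genes with the most events made up most of the 281 such events.

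**Figure D4:**
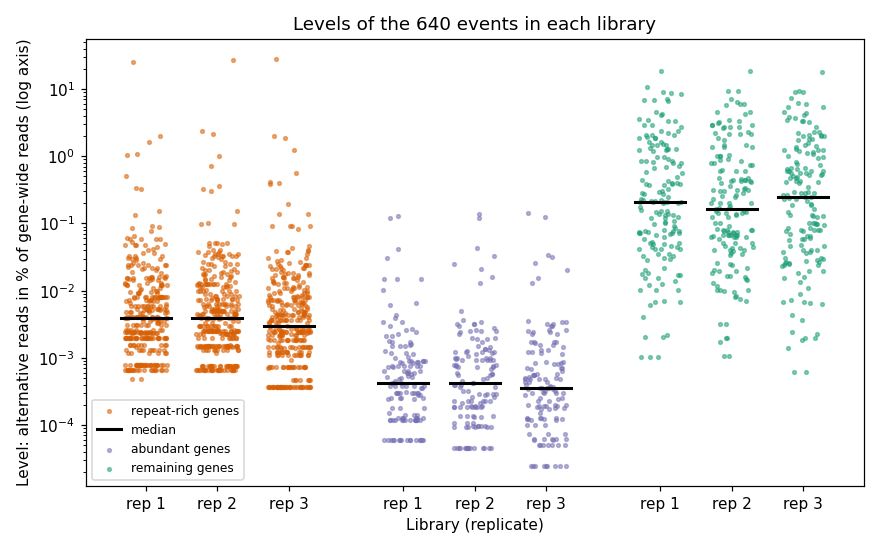
Level of each of the 640 events (log y axis, alternative reads in percent of gene-wide reads) in each library, by class of gene, with the median as a black bar. The medians lie near 0.004% in repeat-rich genes, near 0.0004% in abundant genes and near 0.2% in the remaining genes in all 3 libraries; the horizontal rows of points at the bottom are events with 1 or a few reads.

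Across the libraries, 27 of the 640 events (4.22%, in 20 genes) had levels that differed beyond counting error at an adjusted p of 0.05, against 10.1% of all 62909 listed events. The test depends on reads: of the 98 members with 10 or more alternative reads in each library, 16 passed (16.3%), against 19.6% of all listed events with that many reads. Of the 27 events, 19 were among the 161 of the remaining genes, 5 among the 138 of abundant genes and 3 among the 341 of repeat-rich genes. Events with 10 or more alternative reads in each library numbered 58, 11 and 29 in these classes. The count was 8 without replicate 1 and 5 with Bonferroni adjustment. In ATH1 (AT4G32980), a homeodomain protein, a 128-nt 5′ UTR event had 52, 3 and 32 reads (1.53, 0.203 and 0.765%, adjusted p = 5.53e-04, chi-square test of homogeneity). This event and the next gene were chosen after their values were seen. CDKG1 (AT5G63370), a cyclin-dependent kinase, had 3 such events, all lowest in replicate 2.

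Members differed from sparse events in most sequence features examined. GT-AG ends were found in 187 of 613 single-stretch members (30.5%, Wilson 95% interval 27.0 to 34.3%), against 1781 of 2140 sparse events (83.2%, 81.6 to 84.7%). Both intervals take events of a gene as independent. Ends other than GT-AG, GC-AG or CT-AC made up 361 members (58.9%) and 164 sparse events (7.66%). CT-AC ends were about as common in both sets, in 45 members (7.34%) and 165 sparse events (7.71%), but the members' CT-AC events lay in 11 repeat-rich or abundant genes and 44 of 45 had a length divisible by 3, against 57 of 165 among the sparse. The members' GT-AG share was 64.6% among events with 10 or more alternative reads in each library and 12.8% in genes with 10 or more events. A length divisible by 3 was found in 413 members (67.4%) and 879 sparse events (41.1%). The share was 91.6% in repeat-rich, 52.2% in abundant and 24.8% in the remaining genes. Removed stretches had a median length of 120 nt in members and 98 nt in sparse events.

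Identical bases at both ends were counted next. A run of 5 or more was found in 344 members (56.1%) and 206 sparse events (9.63%), and a run of 10 or more in 162 members (26.4%) and 27 sparse events (1.26%). The longest run was 56 bases in members, in UBQ10, and 26 in sparse events. Among members with 10 or more alternative reads in each library the share with runs of 5 or more was 29.2%. By class, runs of 5 or more were found in 77.8% of repeat-rich, 58.0% of abundant and 2.84% of the remaining genes' events, but all 68 runs of 20 or more were in repeat-rich genes. Within abundant genes the runs were similar in share: in members 80 of 138 (58.0%) had runs of 5 or more and 7 (5.07%) had GT-AG ends, against 29 of 58 and 18 of 58 (31.0%) in sparse events. Within repeat-rich genes, GT-AG ends were found in 52 of 334 members (15.6%) and in 49 of 78 sparse events (62.8%). Abundance, repeats and G and C content moved together with the ends, and their separate parts in the differences were not tested.

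**Figure D5:**
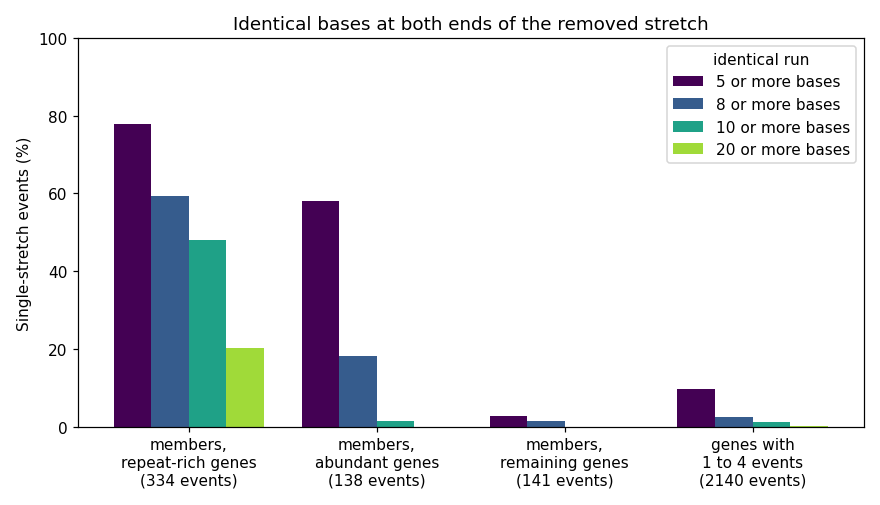
Share of single-stretch events (y axis, percent) with an identical run of at least 5, 8, 10 or 20 bases at both ends, for members in the 3 classes of genes and for genes with 1 to 4 events. Runs of 5 or more reach 77.8% in repeat-rich and 58.0% in abundant genes, against 9.63% in genes with 1 to 4 events, and runs of 20 or more are nearly all in repeat-rich genes.

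Overlap within a gene depends on the number of events, which the rule used, and 1219 of the 1617 sparse genes have 1 event and can show none. A total of 564 of 613 members (92.0%) shared at least 1 base with another CRIN event of the gene, against 632 of 2140 sparse events (29.5%). At the edge of the rule the share was 77.9% in genes with 5 events, against 78.8% in genes with 4. In the remaining genes 99 of 141 events (70.2%) shared an exact end with another event of the gene. In repeat-rich genes 192 of 334 (57.5%) did, and in abundant genes 42 of 138 (30.4%). In UBQ10 the 65 events had 54 different first ends and 57 different second ends, and in PRP4 the 83 had 55 and 64. Ends and overlap were taken from deposited coordinates. Within an identical run, rows with different ends can give the same joined sequence, so different ends need not be different junctions. The most events at 1 first end were 2 in UBQ10 and 6 in PRP4. SFR2 had 7 events with 3 first ends, of which 1 was shared by 5 events.

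The median gene-wide total of the member genes was 22007.5, 16642 and 44182.5 reads in replicates 1, 2 and 3, against 1915, 1852 and 3316 for sparse genes. Of the 100 CRIN genes with the highest totals, 21 were member genes. The Spearman correlation between the number of CRIN events and the mean total was 0.217 across 1669 genes, which share libraries and depth. The median level of members was 0.263 points below that of the sparse events (mean over libraries ± 0.0451 SD). When only sparse events with totals in the range of the member genes were used (1815 events), the difference was 0.171 points. Of all 1669 CRIN genes 52 were member genes. Of the lists of leaf and repeat-coding genes, 5 of 9 major antenna genes and 3 of 9 polyubiquitin genes were member genes, with 107 and 82 CRIN events in each whole list. None of 5 Rubisco small subunit and activase genes was: RBCS1A, with a mean total of 1982400 reads, had 1 CRIN event. PRP4 was the only member among 7 proline-rich and extensin genes and GRP-3 the only one among 6 glycine-rich genes of the lists, and none of 4 dehydrins and 3 arabinogalactan proteins was one. A gene with no listed event of any class could not be a member: only 6 of the 9 polyubiquitin, 3 of the 7 proline-rich and extensin, 5 of the 6 glycine-rich and 1 of the 3 arabinogalactan genes were in the table, while all of the antenna, Rubisco and dehydrin genes were.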

How the data were processed

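RNA from 3 pooled leaf samples was DNase-treated and made into Illumina TruSeq libraries, per the labels' protocols. The submitters' processing notes list CASAVA (version 1.8.2), the aligner GSNAP and TAIR10 as the build. The sources used here do not state how events were defined, how reads were assigned or whether strand was kept. The values are raw counts of reads as deposited, an alternative and an other count for each event and library, and no listed event has 0 alternative reads in any library. Positions are deposited, 1-based, and were read on TAIR10.1, whose nuclear chromosomes have the same lengths. Strand, introns, exons and gene names are from RefSeq.

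Levels, ends, identical runs (searched up to 60 bases on each side), overlap (1 base or more) and repeated 15-nt words were computed in Python 3.11.15 with pandas 2.3.3 and scipy 1.17.1. Equal levels over the 3 libraries were tested for all 62909 events by chi-square (homogeneity), with p-values adjusted after Benjamini and Hochberg and a threshold of 0.05; the procedure was checked on simulated data. It sets libraries against counting error alone, reads are not independent molecules, and it is approximate at few reads. The intervals likewise cover counting error only and take events of a gene as independent. The members, gene lists and rule for named genes (the 10 genes with most events, the 10 with the highest totals, the list genes, and events ranked by reads, level or spread) were chosen with earlier results of these data known, and the gene classes and length units after seeing the values.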

Additional observations from a re-analysis of the deposited data

How the results depend on the processing

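No paired analysis was possible because there is 1 group. With 10 or more alternative reads in each library, 16 events differed between libraries, the median level was 0.376%, with a difference of -3.01 points from sparse events with as many reads, and the shares were 64.6% GT-AG, 49.0% divisible by 3, 29.2% with repeated ends and 63.5% overlapping, with a summed level (median over genes of all members' share of the gene's reads) of 1.46%. In genes with 10 or more events the values were 7 events, 0.00206%, 12.8%, 79.9%, 72.9%, 98.7% and 0.189%. Without PRP4, the level was 0.00538%, GT-AG ends 34.3% and lengths divisible by 3 62.5%. Repeated ends fell to 36.7% at 8 and 26.4% at 10 identical bases. Bonferroni adjustment left 5 events that differed between libraries. Counting each gene once gave a median level of 0.0294%, and sparse events with totals in the members' range gave a difference of -0.171 points. Without the 18S rRNA genes and the copy of PGLP1, an alternative chosen after seeing the data, the summed level was 0.946%, against 0.758% ± 0.149. Leaving out each replicate in turn gave 8 to 24 events that differed, the lowest without replicate 1, median levels of 0.00384 to 0.00423%, differences from sparse events of -0.284 to -0.239 points and summed levels of 0.686 to 0.834%. The median level stayed below that of sparse events in these alternatives. The shares of GT-AG ends, of repeated ends and of overlapping events thus depend on the reads and on the number of events required. The cause of each shift was not tested. For the 281 events with fewer than 10 reads in all, levels and library differences are limited by counting error.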

Other observations

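The classes also differed in the rest of their listed events. The table held no event of another class for 8 of the 9 abundant genes, for 4 of the 16 repeat-rich genes and for 2 of the 27 remaining genes. Events of the class IR, a code taken here to mean retained introns, were listed in 1 abundant, 12 repeat-rich and 25 remaining genes. No annotated transcript has more than 1 exon in 8 of the 9 abundant and 2 of the 16 repeat-rich genes, while each of the 27 remaining genes has one with several.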
